A study of Mus musculus with 384 samples.

Results

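Sbno2, Trib1 and 8 genes of the interleukin-6 (IL-6) family pathway (Stat3, Il6st, Il6ra, Osmr, Lifr, Il6, Lif and Jak1) are described here in single cells sorted from mouse lung. They are 10 of the 23422 genes in the count table, and all 10 are also among the genes that the authors kept after their filter. They were chosen by name: Sbno2 and Trib1 were picked on their levels in these same kept cells, where they had been named for a cluster, and the other 8 for their known place in the pathway. The kept-cell values of Sbno2 and Trib1 are therefore a description and carry no test.

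The study sequenced the mRNA of single cells from adult lung to describe mesenchymal cells that carry the receptors Lgr5 or Lgr6. The cells came from 2 mice with Lgr5-IRES-CreERT2 and a tdTomato reporter at R26 (R26-Tom), sorted as Tom+ cells after induction of the Cre. The others came from 2 mice with Lgr6-EGFP-IRES-CreERT2, sorted as GFP+ cells. In the paper's tracing of Lgr5 cells tamoxifen was the inducer, and no induction is named for the Lgr6 mice sequenced here. Induction thus goes with the line and cannot be told apart from it in any comparison of the lines. The labels give the age of the mice as 7-10 weeks for most experiments. Lungs were digested with collagenase and dispase, DAPI took away dead cells, and the sorted cells of both lines were CD31-, CD45-, CD11b- and TER119-. A cell counted as Lgr5 or Lgr6 here is thus one in which the Lgr5-driven Cre had switched on the reporter, or the Lgr6 locus drove GFP, and it need not hold the transcript when sorted. Each mouse gave 95 single-cell wells and 1 pool of cells, and no well's counts were a copy of another's. The authors kept 29 and 28 cells of the Lgr5 mice, 57 together, and 50 and 75 of the Lgr6 mice. The mouse is the replicate, with 2 in each line.

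Summed over kept cells, the counts were 9874249 in Lgr5 mouse 1, 13198680 in Lgr5 mouse 2, 28875278 in Lgr6 mouse 1 and 124650544 in Lgr6 mouse 2. The median count per kept cell was 263129, 272729, 332588 and 1537593 in this order, which is the order of 4 values throughout, and single kept cells ranged from 9748 to 4538878. Lgr6 mouse 2 thus had the deepest libraries by far, so shares of cells below are given as measured and, where depth moved them most, with each cell thinned to 99000 reads, which leaves out 1, 3, 13 and 2 cells with fewer. Reads are PCR copies that no molecular identifier tells apart, and intervals and limits for a count of 0 cover counting error only.

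IL-6 family cytokines, among them IL-6, leukemia inhibitory factor (LIF) and oncostatin M, signal through receptors that share the subunit gp130, the product of Il6st. Each cytokine adds a partner subunit of its own, encoded by Il6ra for IL-6, Lifr for LIF and Osmr for oncostatin M, and the joined receptor activates the kinase JAK1, which phosphorylates the transcription factor STAT3. In fibroblasts and other stromal cells this pathway is known for its part in acute-phase and inflammatory gene programs, and feedback inhibitors such as SOCS3 end the signal. Sbno2 encodes a homolog of the fly protein strawberry notch, a helicase-like regulator of transcription that is induced by IL-6 family and IL-10 signals through STAT3. Trib1 encodes a pseudokinase of the Tribbles family that brings the ubiquitin ligase COP1 to C/EBP transcription factors.

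STAT factors bind palindromes of the form TTCNNNGAA, and since Sbno2 and Stat3 moved together in these cells, as shown further on, the promoters were searched for these letters. The search covered 250 bases before to 50 after each RefSeq start on GRCm38.p6, the pattern reads the same on both strands, and 9 of the 10 genes had an entry. Sbno2 has 3 starts there, all on the minus strand of chromosome 10, and the windows of 2 of them held 1 match each, at chr10:80102653-80102952 and chr10:80101138-80101437. They are printed 5′ to 3′ as read on the minus strand, with the match in capitals.
Sbno2 start 1: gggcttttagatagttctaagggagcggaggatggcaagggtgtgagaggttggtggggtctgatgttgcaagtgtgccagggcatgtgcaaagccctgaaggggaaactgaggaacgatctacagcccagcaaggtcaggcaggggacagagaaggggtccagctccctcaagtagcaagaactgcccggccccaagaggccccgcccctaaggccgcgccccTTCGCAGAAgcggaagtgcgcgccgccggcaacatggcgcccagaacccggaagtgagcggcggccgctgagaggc
Sbno2 start 2: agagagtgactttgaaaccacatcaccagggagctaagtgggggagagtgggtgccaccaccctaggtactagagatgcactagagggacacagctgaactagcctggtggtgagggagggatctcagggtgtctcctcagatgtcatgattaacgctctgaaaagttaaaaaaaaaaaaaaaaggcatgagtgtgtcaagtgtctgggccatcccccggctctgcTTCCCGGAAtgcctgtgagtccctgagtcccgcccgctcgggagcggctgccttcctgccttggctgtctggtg
The match begins 26 bases before the start in the window of start 1 and 24 bases before it in that of start 2. The third start of Sbno2, and the windows of Stat3, Il6st, Il6ra, Osmr, Lifr, Il6, Lif and Jak1, held none, so that 2 of 12 windows held the pattern. Over all promoters in the reference, 2726 of 32851 (8.3%) did. A match is a description of the letters and not a binding site.

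The cells were checked against markers of their expected type. Col1a1 was detected, with a count above 0, in 87.9% of the kept cells, Col3a1 in 92.9%, Col1a2 in 81.3%, Vim in 90.7%, Dcn in 35.2% and Pdgfrb in 28.6%. Collagen and Vim transcripts were thus in most kept cells, and those of Pdgfrb in a minority. Dcn differed between the lines, with 21, 22, 9 and 12 positive cells in the 4 mice. It was thus in most Lgr5 cells and in a minority of Lgr6 cells. Ptprc (CD45) was found in 2 cells and Pecam1 (CD31) in 0, which the filter of the authors fixed beforehand, since it took out cells with either gene at a TPM of 1 or more. Itgam, the gene of the sort marker CD11b, was detected in 72.5% of the kept cells and Lyz2 in 17.6%. The mean log2(TPM + 1) of Itgam was 2.30, 0.90, 0.92 and 0.69 in the 4 mice. The other immune markers were rare: Cd68 was in 6.04% of the kept cells, Cd14 in 4.95% and Csf1r in 3.30%. Cd79a was in 1.65%, Tyrobp in 0.549% and Cd3e in 0%. Transcripts of other lung cells were present as well. Epcam was detected in 12.1% of the kept cells, Sftpc in 33% and Sftpb in 72%, and the embryonic globin Hbb-bh1 in 29, 26, 1 and 0 cells of the 4 mice.

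The ligands come first. Il6 encodes IL-6 itself. Lgr5 mouse 1 had it in 24.1% of its cells (95% Clopper-Pearson interval 10.3 to 43.5%), Lgr5 mouse 2 in 7.14% (0.877 to 23.5%), Lgr6 mouse 1 in 10% (3.33 to 21.8%) and Lgr6 mouse 2 in 5.33% (1.47 to 13.1%). Few cells of any mouse had Il6, and the shares of the lines overlapped. A single cell gave 46.3%, 72.5%, 74.4% and 48.1% of all Il6 counts of its mouse. Where it was detected it was high, with a median log2(TPM + 1) of 7.01, 8.0, 7.75 and 6.71 over the cells that had it (TPM is scaled for depth and gene length). Lif had a mean log2(TPM + 1) of 0.51, 0.64, 0.28 and 0.12, with 24.1%, 17.9%, 10% and 8% of cells positive. With thinned cells these shares fell to 14.3%, 8%, 5.41% and 2.74%, over 28, 25, 37 and 73 cells. In Lgr5 mouse 2, 1 cell held 96.7% of the Lif counts, and in Lgr6 mouse 2, 1 cell held 90.3%. Il6 or Lif was found in 39 of the kept cells and both in 2, which were both cells of Lgr6 mouse 1. The product of the shares within each mouse would give 1.69 such cells in Lgr5 mouse 1 and 0.5 in Lgr6 mouse 1, too few to tell whether the ligands go together.

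The receptors follow. Il6st, the shared subunit gp130, was detected in 51.7%, 50%, 64% and 54.7% of cells, and its mean log2(TPM + 1) was 3.02, 2.30, 3.95 and 3.35. The Lgr6 mice were both above the Lgr5 mice in this mean, 3.65 ± 0.42 (SD, n = 2 mice) against 2.66 ± 0.51. Lifr, the LIF receptor subunit, was the most widely detected receptor gene, in 93.1%, 67.9%, 70% and 85.3% of cells. Its share depended on depth: with cells thinned to 99000 reads it was 82.1%, 56%, 51.4% and 58.9%, and Lgr5 mouse 1 stood above the other 3 mice. Lifr was then no longer first in every mouse. Thinned cells had Il6st in 56.8% in Lgr6 mouse 1, above Lifr, and Osmr in 56% in Lgr5 mouse 2, level with it. Osmr, the oncostatin M receptor subunit, was found in 55.2%, 50%, 34% and 38.7% of cells, and its mean log2(TPM + 1) was 3.41, 2.76, 2.05 and 2.33. Both Lgr5 mice lay above both Lgr6 mice, at 3.08 ± 0.46 against 2.19 ± 0.20. Il6ra, the IL-6 receptor subunit, was the rarest, in 31%, 10.7%, 10% and 16% of cells with a mean log2(TPM + 1) of 1.56, 0.64, 0.42 and 0.70. With thinned cells it was found in 25%, 8%, 10.8% and 9.59%. Lgr5 mouse 1 alone was high in it, and the lines overlapped. Il6st was detected together with at least 1 of its partners Il6ra, Osmr and Lifr in 90 of the kept cells, and none of the 4 was detected in 10 cells. Receptor transcripts were thus common while those of the IL-6 specific subunit were not.

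Jak1 encodes the kinase that the receptors share. It was detected in 62.1%, 53.6%, 44% and 49.3% of cells at a mean log2(TPM + 1) of 3.53, 2.80, 2.70 and 3.02, and the mice of the lines overlapped in the mean. Stat3, the transcription factor, was detected in 75.9%, 85.7%, 64% and 78.7% of cells. Its mean log2(TPM + 1) was 5.24, 5.36, 4.60 and 5.08, or 5.30 ± 0.08 for Lgr5 and 4.84 ± 0.34 for Lgr6. It was the highest of the 10 genes in the mean over the 4 mice.

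Sbno2 was detected in 69% (49.2 to 84.7%), 82.1% (63.1 to 93.9%), 44% (30 to 58.7%) and 54.7% (42.7 to 66.2%) of cells. With thinned cells it was found in 67.9%, 76%, 43.2% and 53.4%, so depth hardly moved it. Its mean log2(TPM + 1) was 5.0, 5.50, 2.81 and 3.30, or 5.25 ± 0.35 for Lgr5 and 3.06 ± 0.35 for Lgr6. Trib1 was detected in 58.6% (38.9 to 76.5%), 53.6% (33.9 to 72.5%), 36% (22.9 to 50.8%) and 26.7% (17.1 to 38.1%) of cells, at a mean log2(TPM + 1) of 4.05, 3.41, 2.55 and 1.49. For both genes the Lgr5 mice lay above the Lgr6 mice in the mean and in the share of cells.

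Ordered by the mean log2(TPM + 1) over the 4 mice, which is scaled for gene length and can be compared between genes, the genes ran Stat3 5.07 ± 0.33 (SD, n = 4 mice), Sbno2 4.15 ± 1.30, Il6st 3.15 ± 0.69, Lifr 3.12 ± 0.68, Jak1 3.01 ± 0.37, Trib1 2.88 ± 1.11, Osmr 2.63 ± 0.59, Il6 0.84 ± 0.61, Il6ra 0.83 ± 0.50 and Lif 0.39 ± 0.23. Neighbours in this order differed by no more than the larger of their SDs between mice, except for Osmr and Il6, whose gap was wider than the SD of either.

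**Figure D1:**
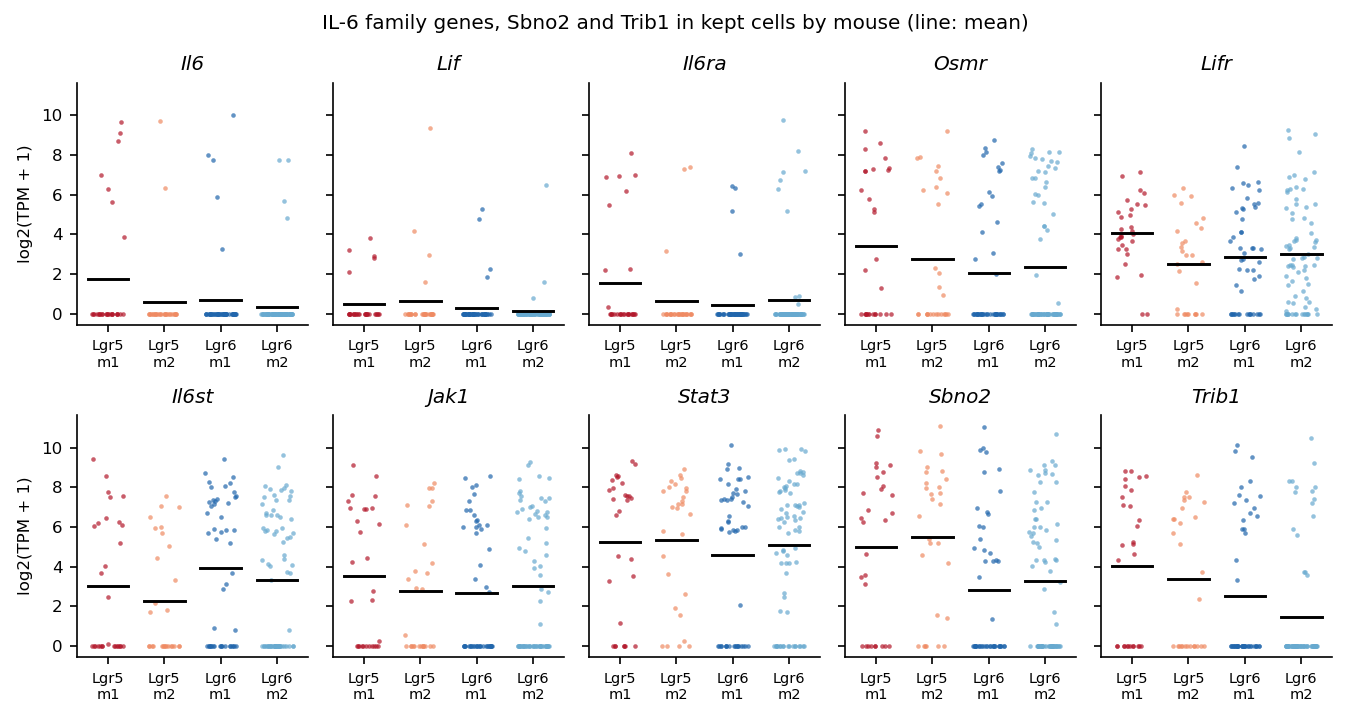
Level of each of the 10 genes, as log2(TPM + 1), in the kept cells by mouse (m1 and m2, mouse 1 and 2 of a line), 1 point per cell, with a black line at the mean of the mouse. Means of Stat3 lie between 4.60 and 5.36, those of Sbno2 at 5.0 and 5.50 for Lgr5 and at 2.81 and 3.30 for Lgr6, and most cells have no Il6, Il6ra or Lif.

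The comparison of the lines asks whether the pathway genes differ between Lgr5 and Lgr6 cells. In mean log2(TPM + 1), 5 of the 10 genes (Sbno2, Trib1, Stat3, Osmr and Lif) had both Lgr5 mice above both Lgr6 mice, as had 26.5% of all 19715 genes compared. Without Sbno2 and Trib1 it was 3 of 8, a share not far from that of all genes. Il6st was the 1 gene with both Lgr6 mice above, as were 15.7% of all genes. Summed counts per mouse gave a weaker contrast than means over cells. Sbno2 had 476, 631, 494 and 157.98 CPM (counts scaled to the size of the library) and Trib1 172.1, 193, 203 and 82.9 CPM, so that in sums both genes of Lgr6 mouse 1 lay within or near the range of the Lgr5 mice. In that mouse 1 cell held 37.7% of the Sbno2 counts and 1 cell 47.6% of the Trib1 counts.

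Tests used edgeR's quasi-likelihood method on the sums per mouse with Benjamini-Hochberg adjustment over all genes, and log2 fold changes are Lgr5 over Lgr6. Of 14086 genes, edgeR called 0 (0%) at an adjusted p of 0.05, while 1312 (9.31%) had an unadjusted p under 0.05, and DESeq2 called 567 (4.11% of those it tested). None of the 8 tested members passed, and at the unadjusted level 1 of 8, Il6, was higher in the Lgr5 line, against 4.06% of all genes. Il6 had 37.8, 22.2, 2.93 and 4.11 CPM, both Lgr5 mice being above both Lgr6 mice, and its log2 fold change was 3.09 (standard error, SE, 1.16; edgeR quasi-likelihood, Benjamini-Hochberg adjusted p = 0.459). DESeq2 gave it an adjusted p of 0.0203. These sums rest on the few cells named above. Osmr had 195, 138.3, 60 and 116.4 CPM, the Lgr5 mice again above, and a log2 fold change of 0.92 (SE 0.57; edgeR quasi-likelihood, Benjamini-Hochberg adjusted p = 0.701). Stat3 had 457, 358, 367 and 301 CPM with the lines overlapping, and a log2 fold change of 0.29 (SE 0.40; edgeR quasi-likelihood, Benjamini-Hochberg adjusted p = 0.871). The other members lay between -0.62 for Lifr and 4.71 for Lif, the latter carried by 1 cell. Sbno2 had a log2 fold change of 0.76 (SE 0.59) and Trib1 of 0.35 (SE 0.58), given with no test. Without Lgr6 mouse 1 these were 1.84 and 1.17, and without Lgr6 mouse 2 they were 0.15 and -0.16, so in sums the size of the difference turned on which Lgr6 mouse was used, and for Trib1 the direction did too.

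Markers of other cells and genes of the dissociation response were compared too, and edgeR called none of them. DESeq2 called Acta2, Rgs5, Scgb1a1 and 3 erythroid genes, Hbb-bh1 among them. Of all genes tested, 48.6% had a fold change above 0, that is a higher value in the Lgr5 line. Of the 8 airway smooth muscle markers 0 were higher in the Lgr5 line, with a median log2 fold change of -2.21, summed levels of 5365, 1283, 14277 and 13322 CPM and Acta2 as the most abundant. Of the 8 alveolar fibroblast markers 2 were higher in the Lgr5 line (median -1.33). All 8 lung epithelial markers were higher in the Lgr5 line, with summed levels of 62494, 35468, 1660 and 13794 CPM and Sftpb as the most abundant by mean log2(TPM + 1). Of the 22 genes of the dissociation response, 18 were higher in the Lgr5 line, with a median log2 fold change of 0.59 against -0.05 for all genes and summed levels of 15941, 15845, 13921 and 11607 CPM, Junb being the most abundant. The part of these in the difference of Sbno2 and Trib1 between the lines was not tested. In cells with neither Epcam nor Sftpc (10, 16, 40 and 47 cells), the log2 fold change of Trib1 was 0.99. Among the pathway lists edgeR called no gene and DESeq2 called Icam1, a STAT3 target, as higher and Socs4, a negative regulator, as lower in the Lgr5 line, besides Il6. There 13 of 20 STAT3 targets and 11 of 12 NF-kB response genes had a fold change above 0 (medians 0.55 and 1.02), as had 3 of 6 receptors, 5 of 10 JAK kinases and STATs, 5 of 13 negative regulators of JAK-STAT signaling and 5 of 6 genes of the Tribbles family and their partners.

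Covariation within a mouse was the second question: which of these genes rise and fall with Sbno2 or Trib1 from cell to cell. Spearman's rho of log2(TPM + 1) was computed over the kept cells of each mouse (29, 28, 50 and 75) and then averaged over the 4 mice. Cells of a mouse share its library preparation and differ in depth, so each rho is a description with no p, set beside the 4968 genes detected in at least 20% of the kept cells of every mouse, called background genes here. Their median rho with Sbno2, as a mean over mice, was -0.0135, and 458 of them (9.22%) had a rho above 0 in every mouse.

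Stat3 had a rho with Sbno2 of 0.594, 0.639, 0.418 and 0.575. The mean of 0.557 ± 0.096 (SD, n = 4 mice) was above that of 99.9% of the background genes, and all 4 mice showed it. Osmr had a rho with Sbno2 of 0.420, 0.413, 0.452 and 0.334, a mean of 0.405 ± 0.050 that varied little between mice. Trib1 had 0.461, 0.401, 0.471 and 0.180 with Sbno2, a mean of 0.378 ± 0.136 and lowest in Lgr6 mouse 2. Il6st was weaker at 0.189 ± 0.052, near the 95th percentile of the background genes (0.188), and above 0 in all 4 mice. Il6, at 0.144 ± 0.103, was above 0 in all 4 mice too but is detected in too few cells for a weak rho to carry weight. Jak1 (0.079), Il6ra (0.027), Lif (0.023) and Lifr (-0.032) had means between the 5th and 95th percentile of the background genes, -0.168 to 0.188. Among the background genes, the members Stat3, Il6st and Osmr were above 0 in every mouse, as were 9.22% of background genes, and Jak1 and Lifr were not. Trib1 was too, but it was picked on these cells together with Sbno2 and is not counted.

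For Stat3, Osmr and Il6st the correlations with Trib1 were lower. Osmr had 0.296, 0.258, 0.426 and 0.225, a mean of 0.301 ± 0.088, and Stat3 had 0.082, 0.394, 0.257 and 0.232, a mean of 0.241 ± 0.128. Both were above 0 in each mouse, whereas Il6st was at 0.456 in Lgr5 mouse 1 and between -0.166 and 0.016 in the other 3. Of all 4968 background genes, whose median was -0.00934, 426 (8.57%) were above 0 in every mouse. Over all kept cells, Stat3 and Osmr thus went with both Sbno2 and Trib1, more closely with Sbno2, and the receptor partners Lifr and Il6ra with neither. The relation of Osmr with Trib1 was weaker in the other sets of cells given further on.

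**Figure D2:**
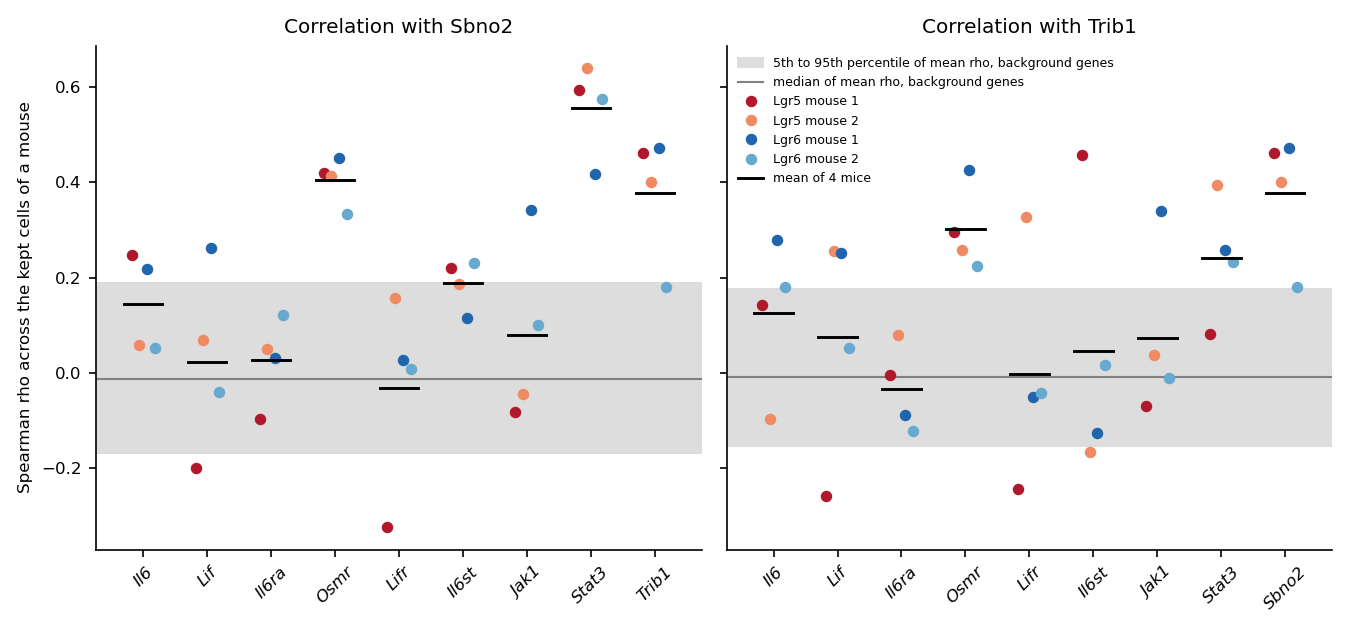
Spearman's rho of each gene with Sbno2 (left) and with Trib1 (right) over the kept cells of a mouse, 1 coloured point per mouse and a black line at the mean of the 4 mice. The grey band spans the 5th to 95th percentile of the mean rho of the background genes (-0.168 to 0.188 for Sbno2), and the means of Stat3 (0.557), Osmr (0.405) and Trib1 (0.378) with Sbno2 lie above it.

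The same relation shows in which cells have each gene. Stat3 was detected in 18 of 20, 20 of 23, 18 of 22 and 37 of 41 cells with Sbno2, and in 4 of 9, 4 of 5, 14 of 28 and 22 of 34 cells without it. Sbno2 and Stat3 were found together in 93 cells, against 81.2 by the product of the shares within each mouse. Sbno2 and Trib1 were found together in 54 cells, against 42.9 by that product, and Sbno2 and Osmr in 59, against 45.9. Osmr and Trib1 were found together in 44 cells, against 30.7, and Sbno2, Trib1 and Stat3 all in 50. Of the 18 cells with Il6, 15 had Sbno2 (10.9 by the product), 14 had Trib1 (8.04) and 14 had Osmr (8.11). Cells with Stat3 or Osmr thus overlapped with those with Sbno2 more than their shares alone would give, as did cells with Osmr and Trib1, and the rare Il6 cells were mostly among them. The overlap of Sbno2 and Trib1 is not counted here, since both were picked on these cells.

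Mean log2(TPM + 1) of Stat3 in cells with and without Sbno2 was 6.31 and 2.87 in Lgr5 mouse 1, 5.98 and 2.48 in Lgr5 mouse 2, 6.00 and 3.50 in Lgr6 mouse 1 and 6.57 and 3.28 in Lgr6 mouse 2. Each mouse showed a gap of a like size, 3.18 ± 0.46 (SD, n = 4 mice). For Osmr the gap was 2.43 ± 0.68 and for Trib1 3.09 ± 1.66, the latter with 4.74 in Lgr5 mouse 1 and 1.13 in Lgr6 mouse 2. Sbno2 was found in 52 of 83 cells with Lgr5 (53.3 by the product of shares within each mouse), in fewer cells with Lgr6 than the product would give (26 of 56, against 32.8) and in 16 of 27 with Pdgfra (15.7).

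**Figure D3:**
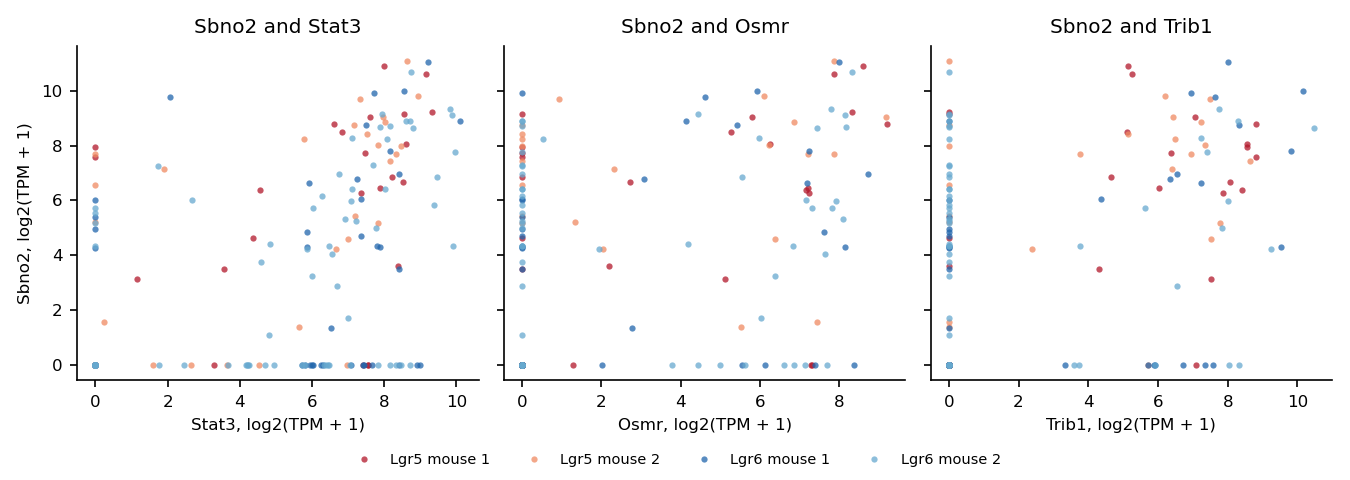
Level of Sbno2 against that of Stat3, Osmr and Trib1 in each kept cell, as log2(TPM + 1), coloured by mouse; points on an axis are cells with a TPM of 0 for that gene, a few of which had a count above 0 and are counted as detected. Sbno2 was found together with Stat3 in 93 cells, with Osmr in 59 and with Trib1 in 54.

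To take the mouse as replicate, the counts of cells with and without Sbno2 were summed per mouse (20 and 9, 23 and 5, 22 and 28, and 41 and 34 cells) and compared by edgeR with the mouse as a block, log2 fold changes being cells with Sbno2 over cells without. Of 11890 genes, edgeR's quasi-likelihood test called 0 (0%) at an adjusted p of 0.05, 362 (3.04%) had an unadjusted p under 0.05, and DESeq2 called 212 (1.89%). No member passed the adjusted threshold by edgeR. At an unadjusted p under 0.05, 2 of 8 tested members (Stat3 and Il6) were higher in cells with Sbno2, against 2.35% of all genes. Higher in every mouse were 2 of 8 (Osmr and Il6, the latter by 1 cell in Lgr5 mouse 2), against 9.51% of all genes. The 8 members other than Sbno2 and Trib1 all had a fold change above 0, with a median of 1.26 on the log2 scale against 0.32 for all genes, of which 60.3% were above 0.

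Stat3 had 472, 372, 597 and 454 CPM in the cells with Sbno2 and 502, 22.2, 107.4 and 114.8 CPM in those without. It was higher with Sbno2 in 3 of 4 mice, and in Lgr5 mouse 1 the sums were alike although the mean over cells was not. Its log2 fold change was 2.13 (SE 0.76; edgeR quasi-likelihood, Benjamini-Hochberg adjusted p = 1). Osmr had 248, 144.9, 100 and 166.3 CPM in the cells with Sbno2 and 91.1, 0, 14.7 and 54.5 CPM in those without, higher in 4 of 4 mice. Its log2 fold change was 2.89 (SE 1.31; edgeR quasi-likelihood, Benjamini-Hochberg adjusted p = 1). Il6 had 53.6, 23.2, 5.51 and 6.86 CPM with Sbno2 and 2.93, 0, 0.0729 and 0.895 CPM without, a log2 fold change of 4.92 (SE 1.59; Benjamini-Hochberg adjusted p = 1 from edgeR and 0.00595 from DESeq2). Setting the sides by a TPM above 1 in place of a count above 0 moved 1 cell to the other side in Lgr5 mouse 2 and 1 in Lgr6 mouse 2. Il6 then had 19.9 CPM with and 28.6 CPM without Sbno2 in Lgr5 mouse 2. Its direction in that mouse thus turned on 1 cell, and it was higher in 3 of 4 mice. Stat3 then had 382 CPM with and 229 CPM without Sbno2 in Lgr5 mouse 2, so the size of its gap there turned on 1 cell too. The log2 fold changes with these sides were 3.29 (SE 1.70) for Il6, 1.18 (SE 0.54) for Stat3, 2.95 for Osmr and 2.32 for Trib1, so that those of Il6, Stat3 and Trib1 were smaller and that of Osmr was not. Trib1 had 237, 202, 334 and 129.1 CPM with Sbno2 and 31.8, 0, 55.7 and 27.5 CPM without, a log2 fold change of 3.48 (SE 1.24) given with no test. In cells with neither Epcam nor Sftpc, where only the 2 Lgr6 mice had enough cells on both sides, it was 1.96. Il6st (1.06), Il6ra (1.47), Lifr (0.73), Jak1 (0.65) and Lif (0.56) had smaller changes, and their errors were about as large as the changes or larger, for Il6st 0.80.

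The genes with the smallest p in this comparison were Thbs1, Cish, Tnfaip6, Ier3 and Gem, each higher in the cells with Sbno2 in 4 of 4 mice, and none passed the adjusted threshold by edgeR. Cish, a feedback inhibitor of cytokine receptors that signal by JAK and STAT, had 157.6, 170, 122.6 and 108.1 CPM in cells with Sbno2 and 5.85, 2.96, 0.875 and 3.66 CPM in those without. The 4 mice were alike in this, and the log2 fold change was 5.61 (SE 0.94; Benjamini-Hochberg adjusted p = 1 from edgeR and 1.02e-07 from DESeq2). Thbs1, which encodes the matrix protein thrombospondin 1, had 10918, 6948, 7961 and 5067 CPM with Sbno2 and 1572, 2262, 1153 and 2076 CPM without, a log2 fold change of 2.12 (SE 0.34). Tnfaip6, which encodes a hyaluronan-binding protein induced by inflammatory signals, had 643, 597, 110 and 99.6 CPM with Sbno2 and 17.2, 9.63, 15.2 and 4.70 CPM without, a log2 fold change of 4.62 (SE 0.77). Both were thus high in the cells with Sbno2 of every mouse, and Tnfaip6 most so in the Lgr5 mice.

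For the split by Trib1 (17 and 12, 15 and 13, 18 and 32, and 20 and 55 cells with and without it), edgeR's quasi-likelihood test called 0 of 11731 genes (0%), 408 (3.48%) had an unadjusted p under 0.05 and DESeq2 called 283 (2.46%). Of the 7 members tested, 0 were under an unadjusted p of 0.05, against 1.96% of genes in the direction of higher, and 2 (Il6st and Jak1) were higher in every mouse, against 7.7% of all genes. All 7 had a fold change above 0, with a median of 0.89 on the log2 scale against -0.02 for all genes, and Lif had too few counts to be tested. Mean log2(TPM + 1) over cells differed from the sums for Il6st and Jak1. Cells with Trib1 minus cells without were at -0.685 for Il6st in Lgr6 mouse 1. For Jak1 they were at -0.293 in Lgr5 mouse 2 and -0.728 in Lgr6 mouse 2. Of the 8 airway smooth muscle markers 0 had a fold change above 0 (median -1.34; DESeq2 called Cnn1), and of the 8 alveolar fibroblast markers 7 had (median 2.40; DESeq2 called Pdgfra, Vcam1 and Cd34), against 49.2% of all genes. From cell to cell, the mean level of the alveolar fibroblast list had a rho with Trib1 of 0.047, 0.156, -0.136 and -0.050. That of the airway smooth muscle list had -0.003, 0.357, -0.158 and -0.185. Neither list had a common sign over the mice, unlike what the sums alone would give. The part of these cell types in the split was not tested. Osmr, higher in 3 of 4 mice, had a log2 fold change of 1.05 (SE 0.66; edgeR quasi-likelihood, Benjamini-Hochberg adjusted p = 1). Stat3, at 0.47 (SE 0.48), changed less than in the split by Sbno2, a difference that was not tested, and the splits share their cells. Sbno2 had 656, 696, 913 and 190.9 CPM in cells with Trib1 and 266, 556, 128.5 and 144.8 CPM in cells without, a log2 fold change of 1.18 (SE 0.50) given with no test. It was higher with Trib1 in 4 of 4 mice, and in cells with neither Epcam nor Sftpc the fold change was 0.33. The genes with the smallest p were Rnf122, Junb, Myc, Arid5a and Hmha1, at log2 fold changes of 2.49, 1.46, 2.57, 2.02 and 5.72, none past the adjusted threshold by edgeR.

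The other genes of the pathway are given from lists. The mean Spearman's rho with Sbno2 was highest for the STAT3 targets: 11 of the 21 other than Sbno2 were background genes, 8 of them above 0 in all 4 mice, with a median of 0.436. Junb had a mean rho of 0.541, Myc 0.496, Socs3 0.475, Fosl2 0.445, Irf1 0.442 and Icam1 0.436, while Bcl2l1 was at -0.127, Hif1a at -0.031 and Vegfa at -0.208, the last below 0 in all 4 mice. Of all background genes, 9.22% had a rho above 0 in every mouse. In the split by Sbno2, 17 of 20 STAT3 targets had a fold change above 0, against 60.3% of all genes. Their median was 2.40 on the log2 scale, against 0.32 for all genes. The values for all genes hold for the lists that follow as well. Of the negative regulators of JAK-STAT signaling, Socs3 (0.475) and Ptpn2 (0.296) were above 0 in every mouse and Socs2 (-0.140) was not, and 9 of 12 had a fold change above 0 (median 1.41). JAK kinases and STATs other than Stat3 showed little: the median rho of the 4 background genes was 0.046, and 5 of 9 had a fold change above 0 (median 0.27). Among the receptors the median rho was 0.130, with Osmr the highest, and 5 of 6 had a fold change above 0 (median 0.89). Of the 10 ligands, 3 were tested and 2 had a fold change above 0 (median 0.56), and of the Tribbles family and its partners other than Trib1 it was 2 of 5 (median -0.25).

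Genes outside the pathway moved with Sbno2 as well. The NF-kB response had a median rho of 0.408, with 5 of 6 background genes above 0 in every mouse, and 11 of 11 tested genes had a fold change above 0 in the split by Sbno2 (median 2.85). Nfkbiz had a mean rho of 0.590 and Nfkbia of 0.548. Of the dissociation response, 15 of 19 background genes were above 0 in every mouse, with a median rho of 0.258, and 21 of 22 had a fold change above 0 (median 1.74). With Trib1 the medians were 0.304 for STAT3 targets, 0.388 for the NF-kB response and 0.234 for the dissociation response, and fold changes in the split by Trib1 were above 0 for 15 of 20, 10 of 11 and 19 of 22 genes (medians 1.12, 2.34 and 1.11). The median rho of the STAT3 targets with Trib1 is over 12 background genes, Sbno2 among them, which was picked on these cells together with Trib1. Of all genes, 49.2% had a fold change above 0 in the split by Trib1 (median -0.02). Junb and Myc are in the lists of both STAT3 targets and dissociation response, and Ier3 in those of the NF-kB and dissociation response. The 2 of 8 lung epithelial markers that are background genes had a median rho of -0.103 with Sbno2, and general mesenchyme markers one of 0.140. For the 2 of 6 pericyte markers that are background genes it was 0.196. The mean level of the pericyte list had a rho with Sbno2 of 0.275, 0.495, 0.125 and -0.146. Of its 4 genes tested in the split by Sbno2, 2 had a fold change above 0 (median -0.03). It was 6 of 6 for general mesenchyme markers (median 0.53) and 4 of 8 for airway smooth muscle markers (0.05). The mean level of the alveolar fibroblast list had a rho with Sbno2 of -0.418, -0.113, 0.083 and 0.030, with no common sign. That of the mast cell list had 0.360, 0.088, 0.387 and -0.025. In the split by Sbno2, 7 of 8 alveolar fibroblast markers (median 1.91), 2 of 2 mast cell markers (2.99), 3 of 8 lung epithelial markers (-0.05; DESeq2 called Scgb1a1) and 0 of 4 immune markers (-1.83) had a fold change above 0, against 60.3% of all genes, and their part in the split was not tested. The mean level of the airway smooth muscle markers had a rho with Sbno2 of -0.037, 0.273, -0.309 and -0.310, with Stat3 of -0.062, 0.393, -0.303 and -0.281 and with Osmr of -0.157, 0.526, -0.578 and -0.478. In both Lgr6 mice these 3 genes were thus lower where muscle markers were higher, and in Lgr5 mouse 2 the reverse held.

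**Figure D4:**
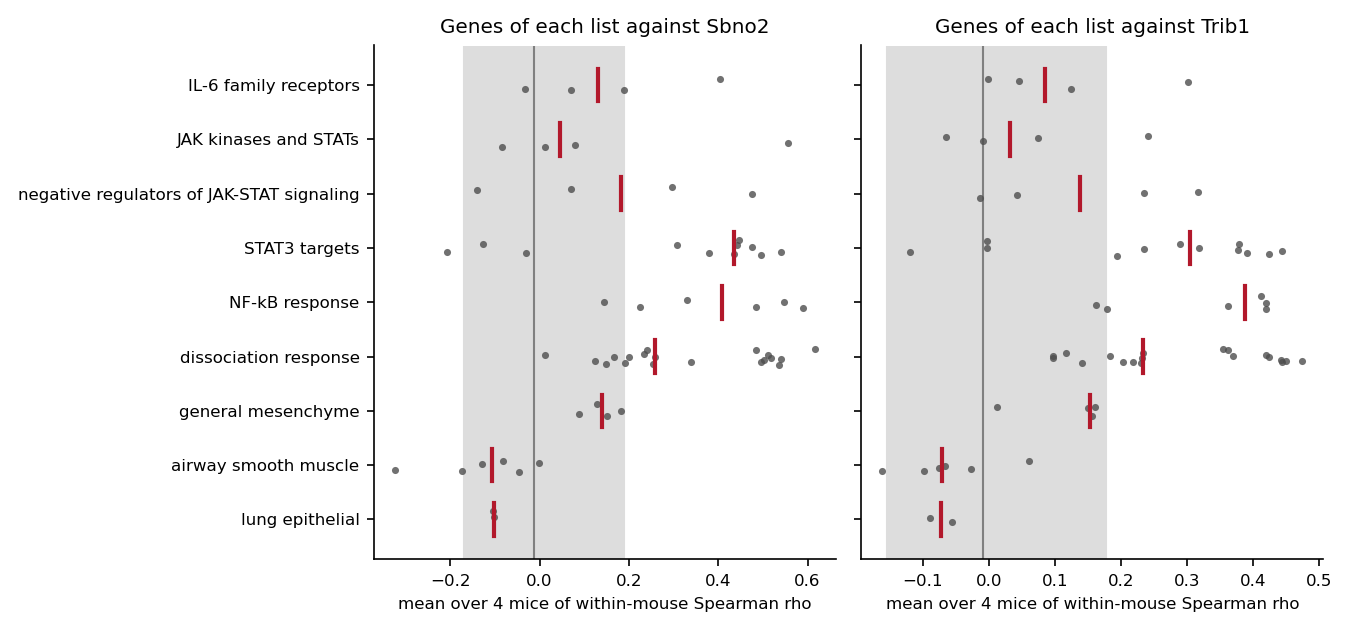
Mean over 4 mice of the rho with Sbno2 (left) or Trib1 (right) for the genes of each list that are background genes, 1 point per gene, with a red line at the list's median, a grey line at the median of the background genes and a grey band from their 5th to 95th percentile. Medians with Sbno2 are 0.436 for STAT3 targets, 0.408 for the NF-kB response and 0.258 for the dissociation response.

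The level of the dissociation list in a cell, as the mean log2(TPM + 1) of its 22 genes, had a rho with Sbno2 of 0.595, 0.579, 0.577 and 0.381 and with Trib1 of 0.660, 0.387, 0.493 and 0.294. Dissociation genes were thus high in cells high in either gene, in every mouse. The partial Spearman's rho given this level, a calculation added after seeing the data, was 0.480 for Stat3 with Sbno2 (0.540, 0.551, 0.311 and 0.519), 0.247 for Osmr, 0.172 for Trib1, 0.118 for Il6st and 0.003 for Il6. Stat3 thus kept most of its rho with Sbno2 and was above 0.3 in each mouse, while Osmr and Trib1 lost a larger share and Il6 nearly all. With Trib1, the same calculation gave 0.101 for Stat3, which was at -0.166 in Lgr5 mouse 1, and 0.156 for Osmr. Over the cells with neither Epcam nor Sftpc, also added after seeing the data, rho with Sbno2 was 0.584 for Stat3, 0.361 for Osmr, 0.207 for Trib1, 0.032 for Il6st and 0.241 for Il6, the last above 0 in 4 of 4 mice. In Lgr5 mouse 1, which had only 10 such cells, rho with Sbno2 was 0.007 for Il6 and 0.031 for Trib1. For Il6st it was -0.430 there, against 0.226, 0.111 and 0.221 in the other mice. Over all cells with neither Epcam nor Sftpc, rho with Trib1 was 0.178 for Stat3, with -0.060 in Lgr5 mouse 1, and 0.174 for Osmr. Both were near the 95th percentile of the background genes with Trib1 in all kept cells, 0.177. The rho of Sbno2 with total counts, the depth of a cell, was 0.184, 0.005, 0.197 and -0.244, with no common sign. With the ribosomal RNA precursor Rn45s it was -0.251, -0.060, -0.035 and -0.284, and Stat3, Osmr and Trib1 were below 0 with Rn45s in all 4 mice as well. That with the number of genes detected was -0.441, -0.162, 0.030 and -0.127, and Stat3's rho with Sbno2 given that number was 0.536. Whether the dissociation of the tissue had a part in these levels was not tested.

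Searching all background genes for those most like Sbno2 gave Zfp36 (0.617), Rnf122 (0.599), Mt1 (0.593), Nfkbiz (0.590), Stat3 (0.557), Nfkbia (0.548), Csrnp1 (0.545), Junb (0.541), Pde4b (0.538) and Btg2 (0.537), by mean rho over 4 mice. Stat3 was thus the fifth of 4968 genes. Most like Trib1 were Lmna (0.488), Cdkn1a (0.480), Zfp36 (0.475), Ifrd1 (0.472), Arid5a (0.471), Btg2 (0.451), Thbs1 (0.451), Myc (0.444), Atf3 (0.443) and Csrnp1 (0.433). The lists share Zfp36, Btg2 and Csrnp1, 30% of each.

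The wells that the authors removed hold cells that the choice of Sbno2 and Trib1 did not use. Of these, 61, 56, 25 and 11 had at least 1000 genes detected. They are a mixed set, in part by the filter on Ptprc and Pecam1: Ptprc was detected in 43, 32, 1 and 2 of them and Pecam1 in 44, 41, 0 and 0, and their median number of genes was 8904, 6464, 1631 and 2188, against 4277, 3640, 3048.5 and 3633 in kept cells. Wells of the Lgr5 mice in this set were thus rich in genes and mostly positive for immune or endothelial genes, and those of the Lgr6 mice were poor in genes. Most genes rose together here, the median rho of the same 4968 genes with Sbno2 being 0.134.

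Stat3 had a rho with Sbno2 of 0.587, 0.611, 0.593 and 0.381 in the removed wells, a mean of 0.543 close to the 0.557 of the kept cells. Trib1 had 0.404, 0.407, 0.638 and 0.274 with Sbno2, a mean of 0.431. Both were above 0 in all 4 mice. Osmr was at 0.285 and above 0 in 3 of 4 mice, and Il6st (0.359) and Jak1 (0.359) were higher here than in the kept cells. In the removed wells with neither Ptprc nor Pecam1 (10, 6, 24 and 9), a calculation added after seeing the data, the mean was 0.379 for Stat3 and 0.431 for Trib1, each above 0 in 3 of 4 mice. The 10 genes most like Sbno2 in kept cells had a mean rho between 0.357 and 0.583 in the removed wells, and those most like Trib1 between 0.034 and 0.426. With Trib1 in all these removed wells, Stat3 had a rho of 0.399, 0.352, 0.533 and 0, a mean of 0.321. Osmr had 0.373, 0.059, 0.128 and -0.467 with Trib1, a mean of 0.023, against a median of 0.071 for the background genes.

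**Figure D5:**
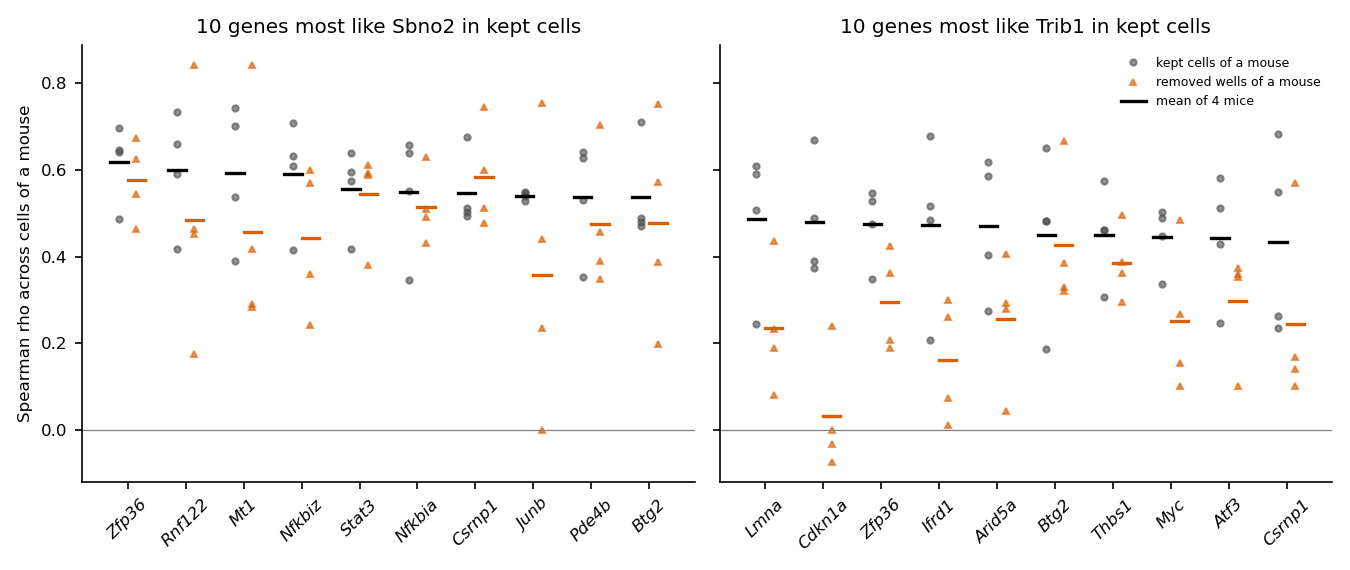
Spearman's rho over the cells of a mouse for the 10 genes most like Sbno2 (left) and most like Trib1 (right) in kept cells, with grey points for the kept cells of each mouse, orange triangles for the removed wells of each mouse and a line at each mean of 4 mice. The genes were picked on the grey points; in removed wells the means for Sbno2 run from 0.357 to 0.583.

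In sums of removed wells with and without Sbno2 (48 and 13, 48 and 8, 9 and 16, and 3 and 8 wells), edgeR's quasi-likelihood test with the mouse as a block called 0 of 10719 genes (0%), 284 (2.65%) had an unadjusted p under 0.05 and DESeq2 called 205 (2.07%). Of 8 members tested, Trib1 among them, 0 were under an unadjusted p of 0.05, against 2.57% of genes in the direction of higher, and 2 (Trib1 and Stat3) were higher in every mouse, against 8.45% of all genes. Trib1 had 117.1, 139.1, 198 and 13.5 CPM in wells with Sbno2 and 32.2, 8.02, 0 and 9.88 CPM in those without. Its log2 fold change was 3.34 (SE 2.14; edgeR quasi-likelihood, Benjamini-Hochberg adjusted p = 1), higher in 4 of 4 mice. Stat3 had 212, 223, 365 and 123.2 CPM with Sbno2 and 23.7, 53.5, 70.5 and 65.5 CPM without, also higher in 4 of 4 mice. Its log2 fold change was 2.13 (SE 1.20; edgeR quasi-likelihood, Benjamini-Hochberg adjusted p = 1). The median over all genes was 0.50. Il6st went the other way at -1.26 (SE 1.17). The 6 immune markers tested were all higher in wells with Sbno2 (median 4.74), Ptprc, Lyz2 and Tyrobp at an unadjusted p under 0.05 by edgeR, and the genes with the smallest p were Chi3l3, Tmem246, Ntng2, Rnf166 and Lysmd2. All 8 lung epithelial markers were higher too (median 2.61), and 6 of 8 airway smooth muscle markers were lower (median -1.56). Of all genes tested, 61.5% had a fold change above 0 in this comparison. The part of these cell types in the values was not tested.

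The pool of each mouse was a single well with 353310, 204948, 66586 and 2203576 counts. Stat3 and Il6st were present in all 4 pools, Stat3 with 10 and 62 counts and Il6st with 20 and 1041 in those of the Lgr6 mice. Sbno2 had 12, 287, 0 and 0 counts and Trib1 337, 1, 0 and 0, so that both were found in the Lgr5 pools alone. Il6, Lif and Osmr had 0 counts in every pool, which allows up to 8.49, 14.6, 45.1 and 1.36 CPM. For the Lgr6 mice, whose kept cells had both Sbno2 and Osmr, the pools thus held fewer of these reads than the summed cells, and a pool is 1 library with no replicate.

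On GRCm38 (mm10) the genes lie apart, and only Osmr and Lifr are near each other, on chromosome 15 from 6813577 to 6874969 and from 7090614 to 7197489. Trib1 is on chromosome 15 as well, from 59648350 to 59657099. Sbno2 spans 80056992 to 80105571 of chromosome 10, Stat3 100885098 to 100939540 of chromosome 11 and Lif 4257557 to 4272514 of chromosome 11. Il6st lies on chromosome 13 from 112464070 to 112510086, Il6ra on chromosome 3 from 89864059 to 89913196, Il6 on chromosome 5 from 30013114 to 30019981 and Jak1 on chromosome 4 from 101152367 to 101265282. Stat3 overlaps Stat5a on the opposite strand, Il6ra overlaps the antisense gene Gm42809, and Jak1 overlaps Raver2, Gm24468 and Gm12785. The libraries keep no strand, so reads from a stretch that such a pair shares cannot be told apart.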

How the data were processed

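The authors demultiplexed reads with bcl2fastq 2.17.1.14 and quantified them with kallisto 0.43.0 on mm10 (submitters' processing notes), and deposited counts per gene and log2(TPM + 1) for all wells, and log2(TPM + 1) and a normalized score (counts scaled to a common depth) for kept cells. Summed counts of each mouse, or of each side of a mouse, were tested with edgeR 4.0.16 (TMM, filterByExpr, glmQLFit) in R 4.3.3, Benjamini-Hochberg threshold 0.05, with 3 or more cells required per side. Alternatives used DESeq2 1.42.0, limma 3.58.1 on mean TPM with pseudocounts of 1 and 0.1, other filters, normalizations, blocks and cells, and each mouse left out. Correlations and shares used Python 3.11.15, numpy 2.4.6, pandas 2.3.3 and scipy 1.17.1, figures matplotlib 3.10.9. Genes were placed by GENCODE vM21. The tests were tested on simulated data. Members and lists were chosen with earlier results of these data known. Named genes are the 10 members, those of lists by a rule on level and p, the 10 most alike by rho and, where fewer than 5 passed, the 5 with the smallest p; values singled out beyond this were chosen after they were seen.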

Additional observations from a re-analysis of the deposited data

Results flagged for a closer look

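The rho of Jak1 with Sbno2 differed in sign between the lines. It was below 0 in both Lgr5 mice (-0.082 and -0.044) and above 0 in both Lgr6 mice (0.343 and 0.1). The mean of the Lgr6 mice minus that of the Lgr5 mice was 0.285, and the difference was not tested. Given the number of genes detected, the rho was above 0 in all 4 mice (0.080, 0.004, 0.342 and 0.123), and over cells with neither Epcam nor Sftpc it was 0.191, -0.180, 0.280 and 0.042, so the difference in sign was lost. It was lost too with Pearson's r (-0.078, 0.012, 0.375 and 0.098). It was kept given the dissociation list (-0.142, -0.080, 0.204 and 0.123) and with scaled counts (-0.073, -0.085, 0.311 and 0.091).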

How the results depend on the processing

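Of 380 log2 fold changes of members under an alternative, 350 were counted as the same, 9 as moved, 2 as stronger and 19 as reversed, and 9 mean rho values and 3 shares of cells moved. A value counted as the same need not be of equal size. All 17 with sides set by a TPM above 1 are counted so, although those of Il6, Stat3 and Trib1 in the split by Sbno2 were smaller. Between the lines edgeR called 0 genes (1312 at an unadjusted p under 0.05), and the count was 567 with DESeq2, 408 with no filter on low counts, 0 with library size in place of TMM, 56 and 24 with limma on mean TPM at pseudocounts of 1 and 0.1, 1 (Cnn1) without cells with Epcam or Sftpc, 13 with thinned cells and 0 to 34 with a mouse left out (34 without Lgr6 mouse 1 and 7 without Lgr6 mouse 2). With the mouse number as a replicate block, which does not pair animals across lines, it was 0 (1001 at an unadjusted p under 0.05). In the splits by Sbno2 and by Trib1, DESeq2 called 212 and 283 genes, and every other alternative run called 0, the one without the replicate block and each mouse left out among them. In the removed wells the count was 205 with DESeq2, 6 with no filter, 1 (Scgb1a1) without wells with Ptprc or Pecam1, which left only mouse 1 of each line, 5 with at least 2000 genes, which left out Lgr6 mouse 1, 0 to 12 with a mouse left out (12 without Lgr6 mouse 1) and 0 without the replicate block. The cause was not tested. A line left with 1 mouse takes its variance from the other line. Library size in place of TMM moved the median log2 fold change of all genes from 0.32 to 0.46 in the split by Sbno2 and from 0.50 to 0.80 in the removed wells.

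Members changed direction as follows, in log2 fold changes none of which passed the threshold in either setting, and the cause was not tested. Trib1 between the lines, which has no test and is among the 9 that moved, went from 0.35 to -0.16 without Lgr6 mouse 2. Between the lines also, Stat3 was at -0.00199 and -0.00201 with limma at pseudocounts of 1 and 0.1, Jak1 at 0.08 with limma at either (0.0761 and 0.0769) and at 0.40 with thinned cells. With a mouse left out, Il6ra ran from -1.20 to 1.49, Il6st from -2.06 to 0.22, Jak1 from -0.60 to 0.22. In the split by Sbno2, Lif was at -1.27 without Lgr5 mouse 2 and -0.94 without Lgr6 mouse 1, and had too few counts to be tested without either other mouse. In the split by Trib1, Stat3 ran from -0.0458 to 0.85 and Lifr from -0.17 to 1.38 with a mouse left out, and Il6ra was at -0.33 with thinned cells. In the removed wells, Osmr ran from -0.0380 to 2.02, Lifr from -0.53 to 1.08 and Il6ra from -0.49 to 5.08 with a mouse left out; without the replicate block Osmr was at -0.25 and Lifr at -0.27, and Lifr was at -0.55 with at least 2000 genes. Depth limits the shares of cells with Lifr and Lif most, and 2 mice per line limit every comparison of the lines.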
